A study of Mus musculus with 32 samples.

Results

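Levels of 10 genes that mark reactive astrocytes (Gfap, Vim, Lcn2, Serpina3n, Cd109, Tgm1, Steap4, S1pr3, Aspg and Sox9) were followed in mouse spinal cord after injury. The genes were taken by symbol from a table of read counts over 23420 genes, where all 10 were found, and all 10 were among the 16314 genes with enough counts to be tested. The table held 32 bulk RNA-seq libraries in 10 groups, from the cord segment on both sides of the lesion of C57BL/6J mice aged 8 to 12 weeks. The label SCI+Gsx1 was given to 3 libraries at 3 days, 3 at 14 days and 4 at 35 days after injury, and SCI+Nkx6.1 to 3 libraries at 3 days and 3 at 35 days. The label SCI+Ctrl was given to 3 libraries at 3 days, 3 at 14 days and 4 at 35 days, and Sham to 3 libraries at 3 days and 3 at 35 days. Both named factors belong to the homeobox class and pattern neural progenitors of the embryonic cord. The sources used here do not state what the control treatment of SCI+Ctrl was, how the factors were delivered, how the cord was injured or the sex of the mice. The labels of the sham cords name no control treatment, so the lesion and the control treatment cannot be told apart in a comparison of injured control with sham.

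Astrocytes are glial cells that support neurons, take up transmitter and contact blood vessels. After damage to the central nervous system they become reactive: they enlarge, build more intermediate filaments, secrete acute-phase proteins and line the border of the lesion. Signals of the interleukin 6 family acting through the glycoprotein gp130, the kinase JAK and the transcription factor STAT3 are known to drive part of this programme in the injured cord. The 10 genes hold different places in it. Gfap and Vim encode intermediate filament proteins. Lcn2 encodes lipocalin 2, a secreted protein that binds iron-loaded siderophores, and Serpina3n a secreted inhibitor of serine proteases. Cd109 is a membrane-anchored protein of the alpha-2-macroglobulin family that binds transforming growth factor beta receptors, Steap4 a metalloreductase of the membrane, and S1pr3 a receptor for sphingosine 1-phosphate. Tgm1 is a transglutaminase best known for cross-linking proteins in the skin, Aspg an asparaginase, and Sox9 a transcription factor needed for making astrocytes that stays on in mature ones. Several of them are made by other cells as well, such as Vim in fibroblasts, endothelium and macrophages and Lcn2 in neutrophils.

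The STAT3 link made the promoters of these genes worth showing. RefSeq windows of GRCm38.p6 reaching from 250 bases before to 50 bases after the start were found for 8 of the 10 genes, not for Cd109 and Sox9. The letters TTCNNNGAA, the palindromic core bound by STAT factors, were searched on both strands. They were present in 3 of the 8 genes (Gfap, Steap4 and Tgm1), which is 3 of 9 windows. Of 32851 promoter windows of the same length, 8.3% held them. The sequences of these 3 are shown 5′ to 3′ on the strand of the gene, with the matching letters in capitals.
Steap4, chr5:7960272-7960471, plus strand: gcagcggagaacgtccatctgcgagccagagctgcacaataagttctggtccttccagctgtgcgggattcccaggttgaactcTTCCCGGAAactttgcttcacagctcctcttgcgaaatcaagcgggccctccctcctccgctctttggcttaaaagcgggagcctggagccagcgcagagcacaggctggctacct
Tgm1, chr14:55713493-55713692, minus strand: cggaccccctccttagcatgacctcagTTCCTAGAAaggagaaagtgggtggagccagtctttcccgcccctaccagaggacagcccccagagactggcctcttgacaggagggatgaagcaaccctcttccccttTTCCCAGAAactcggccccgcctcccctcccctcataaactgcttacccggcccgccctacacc
Gfap, chr11:102897194-102897400, minus strand: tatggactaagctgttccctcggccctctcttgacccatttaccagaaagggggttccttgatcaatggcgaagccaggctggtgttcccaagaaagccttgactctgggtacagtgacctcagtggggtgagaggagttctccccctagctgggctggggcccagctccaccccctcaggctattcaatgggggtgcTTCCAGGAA
The match began 116 bases before the start in Steap4, at 173 and at 64 bases before it in Tgm1, and 2 bases before it in Gfap, so that the Gfap match runs across the start itself. The letters TTGCNNAA, a core of sites for C/EBP factors, were present in 3 of the 8 genes and 3 of the 9 windows, against 10.8% of all windows. They lay in Lcn2 at 216 and Steap4 at 87 bases before the start. In Tgm1 they lay at 32 bases after the start of its other window. They overlapped none of the STAT matches. The AP-1 letters TGANTCA were present in 0 of the 8, against 7.81% of the windows. A match describes the letters of these windows and not a bound site.

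Total counts ranged from 10.8 to 19.5 M per library (median 14.6 M). Within groups, log2 CPM of 2 libraries correlated at r between 0.942 and 0.988 over 36 pairs. CPM are counts relative to library size, scaled with the TMM method. Xist, which female cells transcribe from their silenced X, was above 100 CPM in 7 libraries. These were replicate 1 of injured control and replicates 1 and 2 of sham at 3 days, and replicate 2 of Nkx6.1, replicates 1 and 4 of injured control and replicate 3 of sham at 35 days. In 2 of the 7, replicate 4 of injured control at 35 days and replicate 1 of sham at 3 days, Y-linked Ddx3y was at 32.1 and 19.1 CPM, against 0.574 to 2.87 CPM in the other 5. No Gsx1 library was among the 7, so results for Gsx1 are given with and without the high-Xist libraries where they differ. Counts of the named factors did not separate the labels: Gsx1 had 1 to 10 counts in the libraries labelled Gsx1 and 0 to 7 in injured control libraries, and Nkx6-1 had 47 to 193 counts in those labelled Nkx6.1 and 73 to 158 in injured controls. Groups are therefore named by their labels alone. The labels do not state whether replicates came from separate animals. Groups with a high-Xist library also held low-Xist ones, so their replicates differed in sex-linked transcripts. In injured control at 3 days replicate 1 had Xist at 778 and Ddx3y at 0.755 CPM, against 0.437 and 91.5 CPM in replicate 2. In sham at 3 days replicate 2 had 539 and 1.03 CPM, against 5.88 and 79.7 CPM in replicate 3. For replicates alike in these transcripts, separate origin was not tested, and their spread may be technical. P-values measure only how far these libraries spread. In bulk tissue, fewer cells of a type and less RNA per cell cannot be told apart.

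All 10 genes were higher in the injured cord than in the sham cord, whichever label the injured cord carried. Of the 26 injured libraries, every one lay above all 6 sham libraries for 9 of the 10 genes, beside 5.00% of all genes tested. For Lcn2, 21 of the 26 did, since the sham libraries at 3 days (4.44 to 11.8 CPM) reached into the range of the later injured libraries. Gfap ranged from 3309 to 9556 CPM in the 26 injured libraries (median 5596), against 1253 to 2293 CPM in the 6 sham libraries (median 1827). Tgm1 was nearly absent from sham. It ranged from 6.87 to 214 CPM in injured libraries (median 19.5), against 0 to 0.57 CPM in sham libraries (median 0.369).

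**Figure D1:**
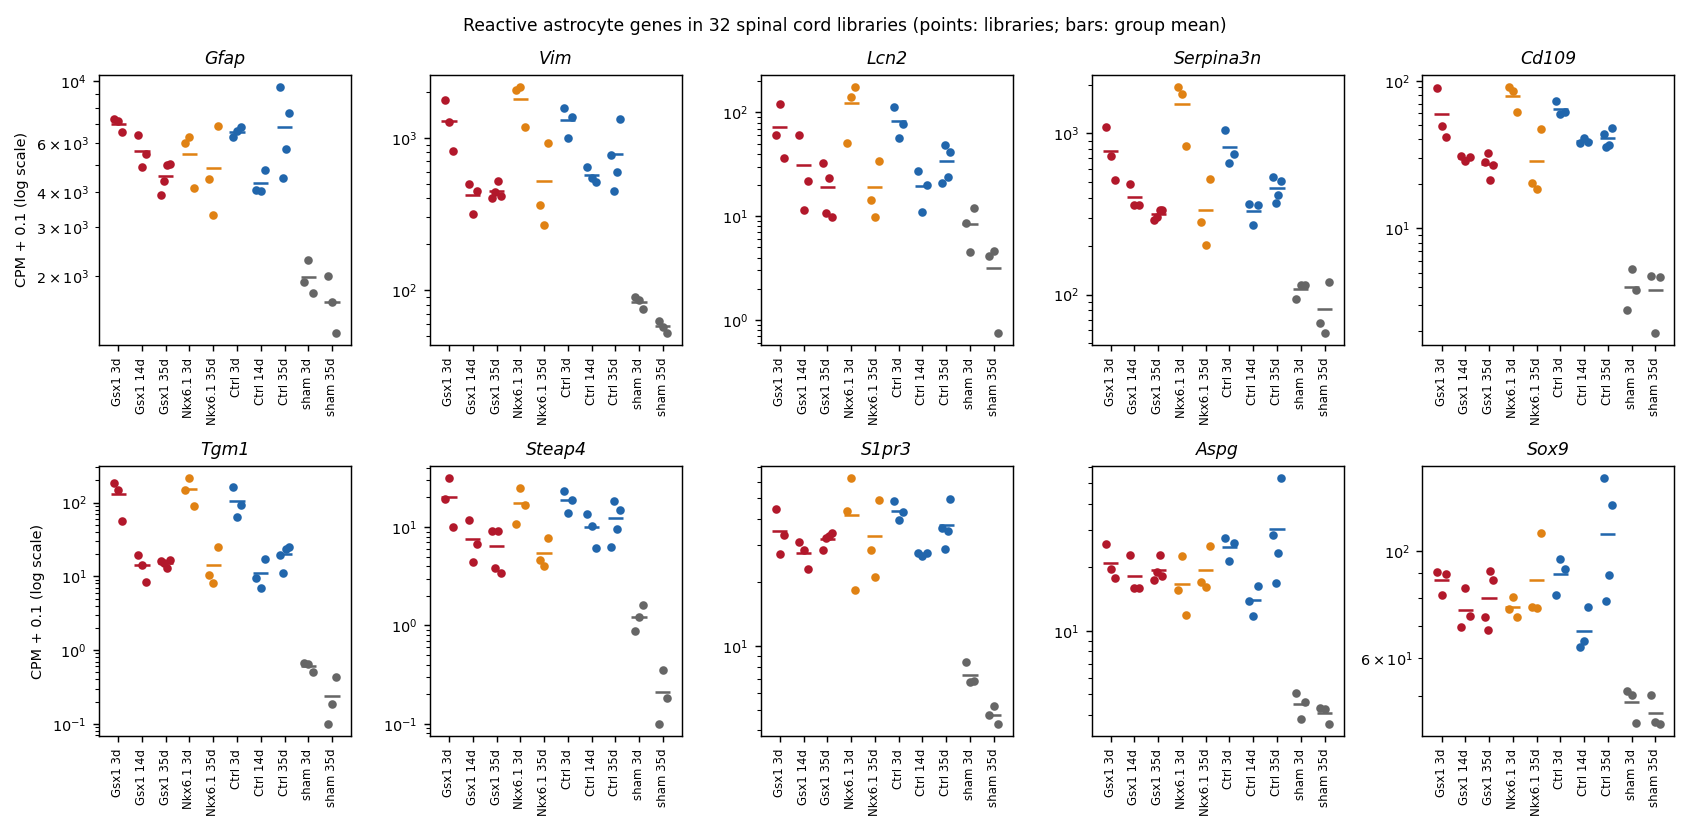
CPM + 0.1 of each of the 10 genes (log scale) in 32 libraries, with 1 point per library and a bar at the group mean, by label and day. Injured groups stand above the sham groups in every panel, and the Gsx1, Nkx6.1 and injured control groups of the same day overlap in most panels.

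Divided by the length of the exons, the order of the genes at 3 days also differed between injured and sham cord. In injured control cords at 3 days Gfap stood at 1562 ± 66.1 CPM per kb, Serpina3n at 396 ± 102, Vim at 276 ± 62.1, Tgm1 at 33.5 ± 15.9 and Lcn2 at 31.4 ± 11.1 CPM per kb (SD, n = 3). Sox9 followed at 21.7 ± 1.86, S1pr3 at 9.77 ± 1.03, Cd109 at 9.32 ± 1.10, Aspg at 7.04 ± 0.908 and Steap4 at 5.88 ± 1.43 CPM per kb. Tgm1 and Lcn2, and likewise S1pr3 and Cd109, differed by less than their SD. In sham cords at 3 days the order of level was Gfap (469.9 ± 66.7 CPM per kb), Serpina3n (52.2 ± 5.53), Vim (17.7 ± 1.61) and Sox9 (11.7 ± 0.953), with Tgm1 last at 0.162 ± 0.0278 CPM per kb. Tgm1 thus ranked 4 of 10 in injured control cords at 3 days and 10 of 10 in sham cords at that day. At 35 days it ranked 8 of 10 in injured control cords and 9 of 10 in sham cords.

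In injured control cords all 10 genes rose against sham at both days, by edgeR's quasi-likelihood test with Benjamini-Hochberg adjustment over all genes. At 3 days this stood beside 19.5% of all genes tested that were called higher, and at 35 days beside 21.3%. The median log2 fold change of the 10 was 3.12 at 3 days, against 0.01 over all genes tested, and 3.23 at 35 days, against 0.04. The groups of all 10 lay apart without overlap at both days, as did 28.0% of all genes at 3 days and 20.4% at 35 days. Adjusted p was 0.000561 or less at 3 days and 0.000639 or less at 35 days.

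Of the filament genes, Gfap had 6288, 6645 and 6838 CPM in the 3 injured control libraries at 3 days, against 1909, 2293 and 1745 CPM in sham. Its log2 fold change was 1.73 ± 0.24 (SE, edgeR adjusted p = 8.33e-06). At 35 days Gfap had 9556, 4480.1, 5702 and 7666 CPM in injured control libraries, against 1993, 1613 and 1253 CPM in sham, a log2 fold change of 2.08 ± 0.24. The injured control libraries at 35 days were spread widely, with replicate 1 more than 2 times as high as replicate 2. Vim rose further than Gfap from a lower sham level: it averaged 1309.7 ± 295 CPM in injured control and 84.1 ± 7.66 CPM in sham cords at 3 days (SD, n = 3 each), a 15.6-fold difference. At 35 days Vim averaged 783 ± 381 CPM in injured control (SD, n = 4) and 57.7 ± 5.17 CPM in sham cords (SD, n = 3).

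The secreted proteins rose as well. Serpina3n had 1054, 651 and 749 CPM in injured control libraries at 3 days, against 94.5, 114 and 114 CPM in sham, and a log2 fold change of 2.92 ± 0.34 (SE). At 35 days it had 538, 369, 415 and 506 CPM in injured control libraries, against 66.5, 58.1 and 119 CPM in sham, a log2 fold change of 2.49 ± 0.32. Serpina3n is 1 of a cluster of close copies on chromosome 12. Of 8 other Serpina3 genes tested, 6 also rose at 3 days and 4 at 35 days, beside 19.5% and 21.3% of all genes. Summed over 10 such copies, the level was 10.7 to 21.9 CPM in injured control libraries against 3.97 to 5.61 CPM in sham at 3 days. Reads may be shared among these genes, which was not tested. Lcn2 had 114, 56.2 and 77.1 CPM in injured control libraries at 3 days, against 8.52, 4.44 and 11.8 CPM in sham (log2 fold change 3.31 ± 0.67, edgeR adjusted p = 0.000561). Over the 10 groups the median coefficient of variation of Lcn2 was 54.9%, the highest of the 10 genes, followed by Tgm1 at 44.6% and Steap4 at 42.6%, with Gfap at 13.8% and Sox9 at 9.21%. In injured control cords at 3 days it was 35.5% for Lcn2 and 47.6% for Tgm1. At 35 days Lcn2 had 21.0, 48.4, 23.9 and 41.9 CPM in injured control libraries, against 3.99, 4.50 and 0.656 CPM in sham (3.47 ± 0.71). With the low-Xist libraries only, which leave 1 sham library at 3 days, the call of Lcn2 at 3 days was lost (log2 fold change 2.52, adjusted p = 0.114).

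Of the membrane proteins, Cd109 rose 16.6-fold at 3 days, to 73.0, 59.0 and 60.9 CPM in injured control libraries, against 2.70, 5.24 and 3.69 CPM in sham. At 35 days it averaged 40.8 ± 5.91 CPM in injured control (SD, n = 4) and 3.69 ± 1.58 CPM in sham cords (SD, n = 3). S1pr3, the sphingosine 1-phosphate receptor, averaged 43.6 ± 4.61 CPM in injured control and 7.23 ± 0.941 CPM in sham cords at 3 days (SD, n = 3 each), and had log2 fold changes of 2.59 ± 0.31 at 3 days and 3.01 ± 0.32 at 35 days (SE). Its exons overlap those of the transcript Gm32834 and those of Tgm1 the transcript Gm49067, and since the strand setting of the counting is not given, their reads cannot be told apart. Steap4 had 23.0, 13.9 and 18.8 CPM in injured control libraries at 3 days, against 0.781, 1.11 and 1.5 CPM in sham (log2 fold change 4.02 ± 0.57). At 35 days it had 6.21, 18.5, 9.37 and 14.8 CPM in injured control libraries, against 0, 3 and 1 counts in the sham libraries. The log2 fold change of Steap4 at 35 days, 6.70 ± 0.78, rests on these few sham counts.

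Tgm1 had the highest fold of the 10 at 3 days. It had 162, 63.8 and 92.1 CPM in injured control libraries at 3 days, against 0.57, 0.555 and 0.410 CPM in sham, a log2 fold change of 7.68 ± 0.67 (SE). At 35 days it had 19.4, 11.0, 23.5 and 24.8 CPM in injured control libraries, against 0, 1 and 4 counts in the sham libraries. Aspg had 27.3, 21.2 and 25.9 CPM in injured control libraries at 3 days, against 4.97, 3.73 and 4.51 CPM in sham, a log2 fold change of 2.49 ± 0.31. At 35 days Aspg had 28.3, 16.7, 23.4 and 52.8 CPM in injured control libraries, against 4.23, 4.16 and 3.53 CPM in sham (2.93 ± 0.31), with replicate 4 the highest. The transcription factor Sox9 had the lowest fold: 81.1, 96.1 and 91.6 CPM in injured control libraries at 3 days, against 51.2, 50.1 and 43.9 CPM in sham, a 1.85-fold difference with adjusted p = 0.000252 (edgeR). At 35 days Sox9 had 142, 78.8, 89.1 and 125 CPM in injured control libraries, against 50.2, 43.9 and 43.6 CPM in sham.

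Cords labelled Gsx1 and Nkx6.1 also differed from sham. All 10 genes rose in Gsx1 cords against sham at 3 days (beside 20.3% of all genes called higher) and at 35 days (beside 8.63%), and all 10 in Nkx6.1 cords at 3 days (beside 27.9%) and at 35 days (beside 6.37%). Median log2 fold changes of the 10 were 2.99 and 2.72 for Gsx1 cords at 3 and 35 days, and 3.85 and 2.75 for Nkx6.1 cords, against 0.01, 0.01, 0.01 and 0.00 over all genes tested. Gfap had 7352, 7179.6 and 6552 CPM in Gsx1 libraries and 6002, 6299 and 4145 CPM in Nkx6.1 libraries at 3 days, against 1909, 2293 and 1745 CPM in sham. Tgm1 had 184, 149 and 56.0 CPM in Gsx1 libraries and 148, 214 and 88.8 CPM in Nkx6.1 libraries at 3 days, against 8, 7 and 6 counts in the sham libraries. These comparisons use the same sham libraries as the injured control, so they do not repeat its result independently. The call with the largest adjusted p was that of Lcn2 in Nkx6.1 cords at 35 days (14.1, 9.73 and 33.8 CPM in Nkx6.1 libraries, against 3.99, 4.50 and 0.656 CPM in sham, log2 fold change 2.66 ± 0.73, edgeR adjusted p = 0.0228). Its call was lost without sham replicate 1 or 3 or Nkx6.1 replicate 3 at 35 days (adjusted p from 0.0559 to 0.217), and that in Gsx1 cords at 35 days without sham replicate 3 or Gsx1 replicate 1. With the low-Xist libraries only, Lcn2 lost its call in Gsx1 cords at 3 days (log2 fold change 2.64, adjusted p = 0.0651) and 35 days (2.18, 0.104) and in Nkx6.1 cords at 35 days (2.51, 0.0930), with fewer libraries in the fit.

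**Figure D2:**
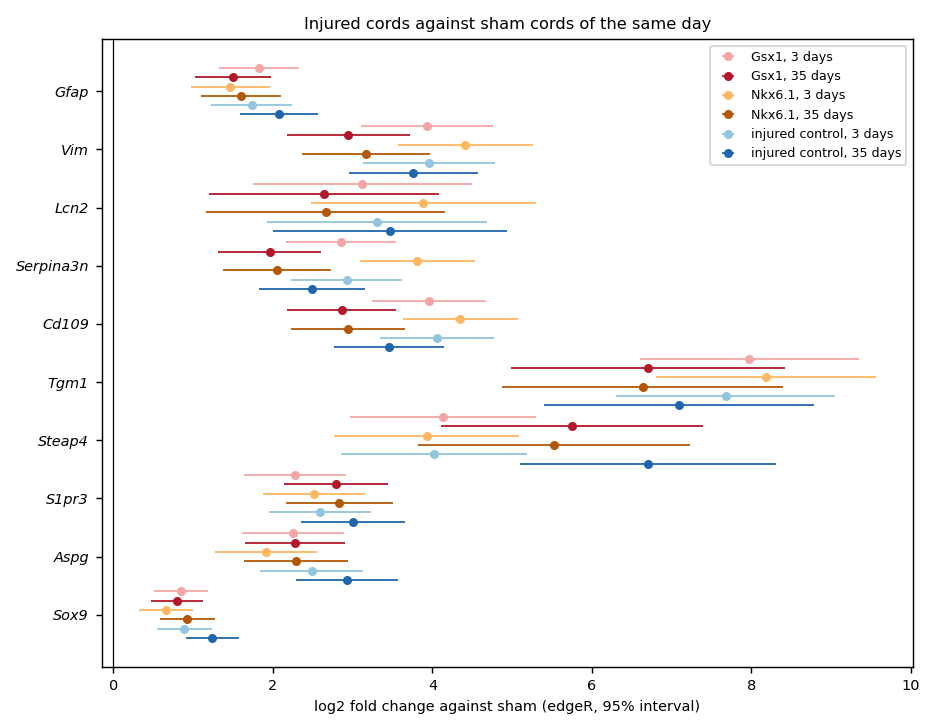
Log2 fold change against sham of the same day, with its 95% interval, for each of the 10 genes in Gsx1, Nkx6.1 and injured control cords at 3 and 35 days. All points lie right of 0, from 0.66 for Sox9 in Nkx6.1 cords at 3 days to 8.18 for Tgm1 in the same cords.

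Whether the injury effect differed between 35 and 3 days was tested as an interaction, in which 0 of the 10 genes were called, beside 0.362% of all genes. DESeq2 also called 0. At an unadjusted p under 0.05, 1 of the 10 passed: Steap4, whose log2 fold change against sham was larger at 35 days by 2.68 ± 1.11 (SE, edgeR adjusted p = 0.416), beside 5.22% of all genes higher and 4.36% lower at that p. The sham libraries alone were compared over the same interval. None of the 10 was called between 35 and 3 days in sham (edgeR; beside 0.00613% of all genes; 1 of the 10 at an unadjusted p under 0.05 and 0 with DESeq2). That 1 was again Steap4, with 0, 3 and 1 counts at 35 days against 11, 14 and 22 counts at 3 days (log2 fold change -3.28 ± 0.98, adjusted p = 0.376), beside 2.43% of all genes higher and 4.75% lower at that p.

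In injured control cords at 14 days all 3 libraries lay below all 3 libraries of 3 days for each of the 10 genes, as they did for 16.8% of all genes. Of the 10, 2 were called lower (beside 2.42% of all genes): Tgm1, with 9.26, 6.87 and 17.2 CPM at 14 days against 162, 63.8 and 92.1 CPM at 3 days (log2 fold change -3.25 ± 0.47, edgeR adjusted p = 0.000439), and Serpina3n, with 364, 269.8 and 360.1 CPM against 1054, 651 and 749 CPM (-1.30 ± 0.32, adjusted p = 0.0228). The other 8 had log2 fold changes from -2.09 ± 0.63 (Lcn2) to -0.39 ± 0.17 (Sox9), with adjusted p from 0.0646 to 0.274. The median of the 10 was -0.87, against 0.01 over all genes tested. The count of calls depended on the fit: 9 of the 10 were called, all but Steap4, when only these 2 groups were fitted, and 4 with DESeq2. The shares of all genes called in these 2 fits are not given here, so these counts cannot be set against them. Without injured control replicate 1 at 3 days, or without replicate 1, 2 or 3 at 14 days, Tgm1 alone was called, and Serpina3n had adjusted p from 0.0571 to 0.140. Summed endothelial markers (3 of 8 called lower) were 326 to 351 CPM at 14 days against 504 to 635 CPM at 3 days. Summed fibroblast markers (1 of 8 called higher) were 3391 to 4202 CPM at 14 days against 1184 to 3060.5 CPM at 3 days, and neuron markers (0 of 10 called) 5423 to 6939.8 CPM against 3753 to 5343 CPM. None of these 3 pairs of ranges overlapped, and their part in the result was not tested.

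From 14 to 35 days 2 of the 10 were called higher in injured control cords (beside 0.858% of all genes). Aspg had 28.3, 16.7, 23.4 and 52.8 CPM at 35 days against 13.8, 11.7 and 16.3 CPM at 14 days (log2 fold change 1.12 ± 0.28, edgeR adjusted p = 0.0429), and Sox9 had 142, 78.8, 89.1 and 125 CPM against 63.1, 64.9 and 76.4 CPM (0.67 ± 0.16, adjusted p = 0.0429). Gfap stood at 6851 ± 2230.4 CPM at 35 days (SD, n = 4) and 4306 ± 430.2 CPM at 14 days (SD, n = 3). The log2 fold change was 0.67 ± 0.23 and adjusted p = 0.0917 with edgeR. DESeq2 called 3 of the 10 higher, Gfap with Aspg and Sox9 (Gfap 0.65, adjusted p = 0.0453). The share of all genes that DESeq2 called is not given here. Both calls were lost without injured control replicate 1 or 4 at 35 days, the 2 high-Xist libraries of that group (Aspg 0.71 and Sox9 0.60 without replicate 4), and also without replicate 1 or 2 at 14 days, and that of Aspg without replicate 3 at 14 days. Without replicate 2 at 35 days Gfap was called as well (0.83, adjusted p = 0.0174). With the replicate block 0 of the 10 were called. Summed fibroblast markers were 450.4 to 2962 CPM at 35 days against 3391 to 4202 CPM at 14 days, and ependymal markers 78.7 to 106 CPM against 50.01 to 65.3 CPM. Neither pair of ranges overlapped, 0 of 8 markers of each were called, and their part in the result was not tested.

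Between 35 and 3 days the number of the 10 called lower was 7 in Gsx1 cords, 6 in Nkx6.1 cords and 1 in injured control cords. These comparisons within a label, for all 3 injured labels, were added after the values had been seen. The 7 that fell in Gsx1 cords (beside 12.4% of all genes called lower) were all but S1pr3, Aspg and Sox9. The 6 in Nkx6.1 cords (beside 21.5%) were Vim, Lcn2, Serpina3n, Cd109, Tgm1 and Steap4. The 1 in injured control cords (beside 5.97%) was Tgm1, with 19.4, 11.0, 23.5 and 24.8 CPM at 35 days against 162, 63.8 and 92.1 CPM at 3 days (log2 fold change -2.43 ± 0.41, edgeR adjusted p = 0.000396). At an unadjusted p under 0.05 the labels were closer. In Gsx1, Nkx6.1 and injured control cords 7, 6 and 5 of the 10 were lower, beside 18.3%, 24.9% and 13.3% of all genes. Libraries of 35 days lay below those of 3 days without overlap for 7, 6 and 4 of the 10, beside 17.0%, 22.1% and 9.64%. Medians of the 10 were -1.22 for Gsx1, -1.58 for Nkx6.1 and -0.63 for injured control cords, against 0.02, 0.02 and 0.03 over all genes tested. Sham cords leaned the same way over this interval, with 0 of the 10 called. All 10 of their log2 fold changes were below 0, with a median of -0.48, against -0.004 over all genes tested. In sham 4 of the 10 lay lower at 35 days without overlap, beside 12.4% of all genes.

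The genes that fell in Gsx1 cords are set out by their levels. Tgm1 had 16.0, 15.1, 12.8 and 16.3 CPM at 35 days against 184, 149 and 56.0 CPM at 3 days (log2 fold change -3.11 ± 0.42), and Vim 404, 440.3, 523 and 413 CPM against 1763, 1269.6 and 814 CPM (-1.53 ± 0.33). Gfap had 3918, 4372, 4997 and 5038 CPM at 35 days against 7352, 7179.6 and 6552 CPM at 3 days (-0.62 ± 0.22, edgeR adjusted p = 0.0487). In all 7 the libraries of the 2 days did not overlap, as for 17.0% of all genes. The call of Gfap was lost without any 1 of the 7 libraries (adjusted p from 0.0509 to 0.147). Without Gsx1 replicate 2 at 3 days, 4 of the 10 were called, with Lcn2 at -1.35 and Steap4 at -1.19 no longer among them. With each of the 7 libraries left out in turn, 1388 to 3588 of all genes were called in either direction. Lcn2 was also lost without replicate 2 or 4 at 35 days, and Cd109 without replicate 1 at 3 days (-0.75).

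In Nkx6.1 cords the secreted genes fell too. Serpina3n had 282, 203 and 524 CPM at 35 days against 1944, 1755 and 840.1 CPM at 3 days (log2 fold change -2.17 ± 0.33), and Lcn2 14.1, 9.73 and 33.8 CPM against 50.7, 142 and 177 CPM (-2.67 ± 0.64, edgeR adjusted p = 0.00169). Tgm1 had 10.2, 8.07 and 24.5 CPM at 35 days against 148, 214 and 88.8 CPM at 3 days (-3.39 ± 0.47). Gfap was not called, with 4454, 3309 and 6929 CPM at 35 days against 6002, 6299 and 4145 CPM at 3 days (-0.16 ± 0.24, adjusted p = 0.606). In injured control cords Lcn2 had 21.0, 48.4, 23.9 and 41.9 CPM at 35 days against 114, 56.2 and 77.1 CPM at 3 days (-1.28 ± 0.56, edgeR adjusted p = 0.136). It was 1 of 4 of the 10 that lay lower there without overlap, as did 9.64% of all genes. Of the 10 macrophage and microglia markers 5 fell in Gsx1 cords, 8 fell in Nkx6.1 cords and 1 rose in injured control cords between 35 and 3 days. Their sum was 1237 to 1459 CPM at 35 days against 1754 to 3646 CPM at 3 days in Gsx1 cords, and 713 to 2261 against 3478 to 5643 CPM in Nkx6.1 cords. Other lists shifted too. In Gsx1 cords endothelial (223 to 373 against 476 to 551 CPM) and fibroblast sums (379 to 791 against 1012 to 1793 CPM) lay lower. In Nkx6.1 cords endothelial sums did (203 to 293 against 528 to 749 CPM), and fibroblast ranges overlapped. Neuron sums lay higher, at 7326 to 7787 against 3226 to 4337 CPM in Gsx1 and 6621 to 7927 against 2150 to 5023 CPM in Nkx6.1 cords. The part of any of these cells in the falls was not tested.

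S1pr3, Aspg and Sox9 were not called between 35 and 3 days in cords of any of the 3 labels, with log2 fold changes from -0.33 ± 0.29 (S1pr3 in Nkx6.1 cords) to 0.29 ± 0.27 (Aspg in injured control cords). Whether the change over time differed between Gsx1 and injured control cords was tested as an interaction. It called 0 of the 10 genes by edgeR and 0 by DESeq2 (beside 0% of all genes), and 1 of the 10 passed an unadjusted p under 0.05, Gfap at -0.67 ± 0.32 (SE, edgeR adjusted p = 0.497), beside 3.15% of all genes higher and 6.74% lower at that p. The same difference between Nkx6.1 and injured control cords was not tested. In Nkx6.1 cords S1pr3 was called lower without replicate 3 at 3 days (-0.68) or at 35 days (-0.73), and Steap4 lost its call without replicate 2 at 3 days (-1.35). In injured control cords Vim was called lower as well without replicate 4 at 35 days (-1.12).

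**Figure D3:**
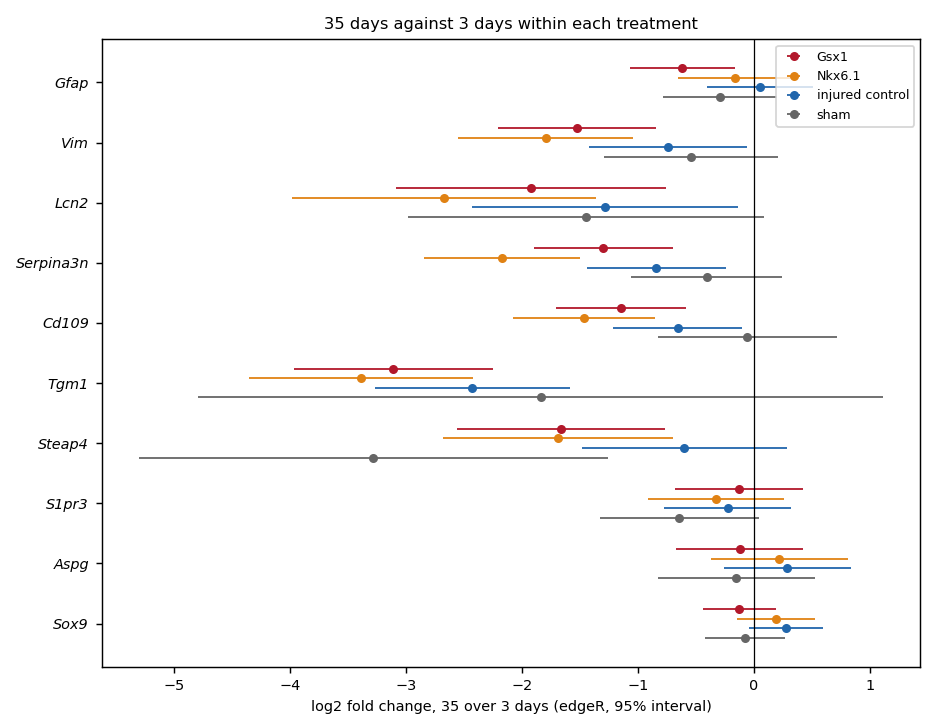
Log2 fold change from 3 to 35 days with its 95% interval in Gsx1, Nkx6.1, injured control and sham cords for each of the 10 genes. Tgm1 lies left of 0 in each of the 4, and Sox9 and Aspg have intervals that include 0 in each of the 4. In sham cords the points of all 10 genes lie left of 0, and none was called.

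Cords labelled Gsx1 were then compared with injured control cords of the same day. None of the 10 genes was called at 3, 14 or 35 days by edgeR, and 0% of all genes were called at each of the 3 days. DESeq2 also called 0 of the 10 at each day. At 3 days no log2 difference of the 10 passed an unadjusted p under 0.05 either, beside 0.858% of all genes higher and 1.21% lower at that p. The differences of the 10 ran from -0.31 ± 0.29 (S1pr3) to 0.30 ± 0.42 (Tgm1), and the 95% interval of Gfap was -0.40 to 0.58. At this day the libraries were broad: Tgm1 had 184, 149 and 56.0 CPM in Gsx1 libraries, against 162, 63.8 and 92.1 CPM in injured control libraries, and the groups overlapped for all 10 genes.

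At 14 days the filament genes lay on opposite sides. Gfap had 6427, 4943 and 5489.7 CPM in Gsx1 libraries, against 4065, 4050.4 and 4803 CPM in injured control libraries, without overlap and with a log2 difference of 0.38 ± 0.24 (SE, edgeR adjusted p = 0.967). Vim had 500.4, 316 and 448 CPM in Gsx1 libraries, against 646, 547 and 516 CPM in injured control libraries, also without overlap (-0.43 ± 0.36, adjusted p = 0.999). Cd109 had 30.6, 28.6 and 30.1 CPM in Gsx1 libraries, against 37.6, 40.9 and 38.6 CPM in injured control libraries. Of all genes, 7.37% lay above and 8.49% below without overlap at this day, and of the 10 genes 1 lay above and 2 below. None of the 10 passed an unadjusted p under 0.05, beside 2.21% of all genes higher and 3.68% lower at that p. Summed fibroblast markers were 658 to 1474 CPM in Gsx1 libraries against 3391 to 4202 CPM in injured control libraries. Summed Schwann cell markers were lower too (320 to 870 against 1030 to 1932 CPM). Summed oligodendrocyte markers were higher (25584 to 29450 against 18734 to 22322 CPM). No pair of these ranges overlapped, and their part in the result was not tested.

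At 35 days all 10 genes had negative log2 differences between Gsx1 and injured control cords, and none passed the adjusted threshold. The median of the 10 was -0.59, against -0.03 over all genes tested. At an unadjusted p under 0.05, 6 of the 10 were lower, beside 12.5% of all genes: Gfap, Vim, Cd109, Steap4, Aspg and Sox9. Gfap had 3918, 4372, 4997 and 5038 CPM in Gsx1 libraries, against 9556, 4480.1, 5702 and 7666 CPM in injured control libraries (log2 difference -0.58 ± 0.21, 95% interval -1.01 to -0.16, edgeR adjusted p = 0.201). The 4 Gsx1 libraries lay close together, and of the injured control libraries replicate 2 lay within their range and the other 3 above it. Sox9 had 72.8, 68.4, 90.9 and 86.9 CPM in Gsx1 libraries, against 142, 78.8, 89.1 and 125 CPM in injured control libraries (-0.44 ± 0.14, adjusted p = 0.194, the lowest of the 10).

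The groups lay apart for 2 of the 10 genes at 35 days, beside 2.89% of all genes. Serpina3n had 291, 303, 337 and 335 CPM in Gsx1 libraries, against 538, 369, 415 and 506 CPM in injured control libraries (-0.53 ± 0.27, edgeR adjusted p = 0.285). Cd109 had 28.0, 32.1, 21.2 and 26.8 CPM in Gsx1 libraries, against 43.1, 35.5, 36.4 and 48.0 CPM in injured control libraries (-0.59 ± 0.26, adjusted p = 0.232). Steap4 had the most negative value, with 8.99, 3.72, 9.03 and 3.34 CPM in Gsx1 libraries against 6.21, 18.5, 9.37 and 14.8 CPM in injured control libraries (-0.95 ± 0.41). S1pr3 had the value nearest 0, with 32.1 ± 2.62 CPM in Gsx1 and 37.3 ± 8.88 CPM in injured control cords (SD, n = 4 each; 95% interval -0.73 to 0.29).

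The size of these differences moved with single injured control libraries. Replicates 1 and 4 of injured control at 35 days, both high in Xist, held the highest value of their group for 8 of the 10 genes, and replicate 2 held the lowest for 8. Lcn2 and Steap4 did the opposite and were highest in replicate 2. Without replicate 2, 4 of the 10 were called lower in Gsx1 cords: Gfap (-0.74), Vim (-1.01), Aspg (-0.85) and Sox9 (-0.57). Of all genes, 11.5% were then called in either direction. Without replicate 1, Gfap stood at -0.35 and Sox9 at -0.26, and without replicate 4, Vim at -0.44 and Aspg at -0.24, with none of the 10 called. With the low-Xist libraries only, which leave injured control replicates 2 and 3, the median of the 10 was -0.21 and Gfap stood at -0.16. Summed macrophage and microglia markers were 1237 to 1459 CPM in the 4 Gsx1 libraries, against 3561 and 3532 CPM in injured control replicates 1 and 4 and 1630.2 and 1919.9 CPM in replicates 2 and 3. The part of these cells in the result was not tested.

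**Figure D4:**
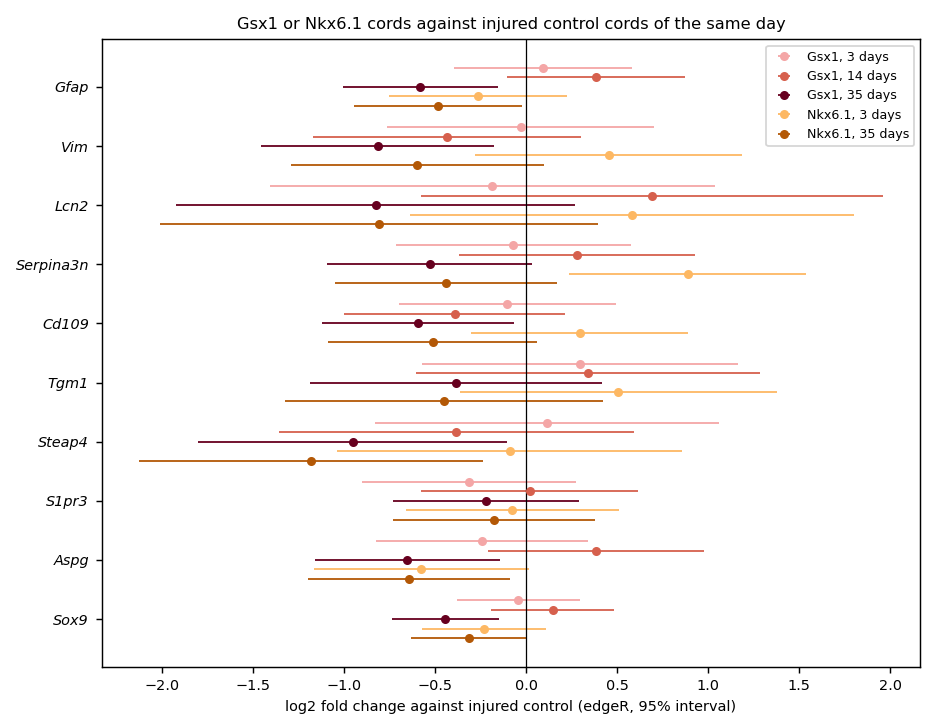
Log2 difference with its 95% interval between Gsx1 or Nkx6.1 cords and injured control cords of the same day for each of the 10 genes. At 35 days all points of both labels lie left of 0 and at 3 days they lie on both sides, and no point passed the adjusted threshold.

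Cords labelled Nkx6.1 were compared with injured control cords at 3 and 35 days. At 3 days none of the 10 genes was called (edgeR; beside 0.337% of all genes; 0 with DESeq2), and 1, Serpina3n, passed an unadjusted p under 0.05, beside 9.47% of all genes higher and 8.82% lower at that p. Serpina3n had 1944, 1755 and 840.1 CPM in Nkx6.1 libraries, against 1054, 651 and 749 CPM in injured control libraries (log2 difference 0.89 ± 0.32, edgeR adjusted p = 0.154). Replicates 1 and 2 lay above all injured controls and replicate 3 within their range. Without replicate 3 the difference was 1.18 and was called (edgeR adjusted p = 0.0145), beside 15.6% of all genes called in either direction. Vim likewise had replicates 1 and 2 above all injured controls and replicate 3 within their range. It had 2044, 2157 and 1178 CPM in Nkx6.1 libraries against 1568, 989 and 1373 CPM in injured control libraries (0.45 ± 0.36).

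Replicate 3 held the lowest value of the Nkx6.1 group at 3 days for 8 of the 10 genes. Aspg leaned the other way, with 15.6, 22.6 and 11.8 CPM in Nkx6.1 libraries against 27.3, 21.2 and 25.9 CPM in injured control libraries (-0.58 ± 0.29, edgeR adjusted p = 0.283). Sox9 lay below without overlap, with 75.9, 80.3 and 73.0 CPM in Nkx6.1 libraries against 81.1, 96.1 and 91.6 CPM in injured control libraries (-0.23 ± 0.17), beside 8.59% of all genes. Summed macrophage and microglia markers were 3478 to 5643 CPM in Nkx6.1 libraries against 1517 to 2561 CPM in injured control libraries. Summed homeostatic astrocyte markers were 9782 to 10587 CPM in Nkx6.1 libraries against 11118 to 13981 CPM in injured control libraries. Neither range overlapped, and their part in the values of the 10 genes was not tested.

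At 35 days none of the 10 genes was called between Nkx6.1 and injured control cords (edgeR; 0% of all genes; 0 with DESeq2), with all 10 values negative and 3 at an unadjusted p under 0.05 (Gfap, Steap4 and Aspg; 8.69% of all genes were lower at that p). Steap4 had 4.52, 3.91 and 7.69 CPM in Nkx6.1 libraries, against 6.21, 18.5, 9.37 and 14.8 CPM in injured control libraries (-1.18 ± 0.46, edgeR adjusted p = 0.348). Gfap had 4454, 3309 and 6929 CPM in Nkx6.1 libraries, against 9556, 4480.1, 5702 and 7666 CPM in injured control libraries (-0.48 ± 0.22). The difference of Gfap was -0.25 without injured control replicate 1, -0.27 without Nkx6.1 replicate 2 and -0.82 without Nkx6.1 replicate 3, and that of Aspg was -0.23 without injured control replicate 4. Within the Nkx6.1 group, replicate 3 was highest and replicate 2 lowest for all 10 genes. Replicate 3 also had 2261 CPM of summed macrophage markers, against 1108 and 713 CPM in replicates 1 and 2, and 1333 CPM of summed fibroblast markers, against 337 and 378 CPM. With the low-Xist libraries only, 7 of the 10 values turned positive (Gfap 0.16, Vim 0.29) and the median was 0.06, against -0.50 with all libraries. The Gsx1 and Nkx6.1 comparisons share their injured control libraries.

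The other genes of the reactive programme were read from lists of textbook genes. All 6 other pan-reactive genes rose in injured control cords against sham at both days, among them Cd44, the hyaluronan receptor (2.94 ± 0.32 at 3 days, log2, SE), the protease inhibitor Timp1 (5.07 ± 0.58) and Osmr, the receptor of oncostatin M (2.66 ± 0.33). Of 11 genes tested that are known from neuroinflammatory astrocytes, 9 rose at each day, such as Serping1, the C1 inhibitor (4.74 ± 0.49 at 35 days), and the glycosyltransferase Ggta1 (2.59 ± 0.35 at 3 days). Of 11 genes known from ischaemic astrocytes, beside Cd109 and Tgm1, 9 rose at 3 days and 10 at 35 days, such as Emp1 (3.50 ± 0.35 at 3 days) and the pentraxin Ptx3 (4.21 ± 0.52). Clcf1 and Stat3 stand in both the ischaemic and the STAT3 list, and Osmr in both the pan-reactive and the STAT3 list. The median log2 fold changes of the pan-reactive, neuroinflammatory and ischaemic lists were 2.80, 1.99 and 2.71 at 3 days, against 0.01 over all genes tested. Genes of the neuroinflammatory and ischaemic lists thus rose together in bulk cord, and which cells made them was not tested. These lists were chosen with earlier results of these data known.

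Of all genes, 19.5% were called higher and 16.0% lower at 3 days, and 21.3% and 15.5% at 35 days. In the gp130 and STAT3 pathway 7 of 13 genes tested rose and 1 fell at 3 days, and 7 rose and 2 fell at 35 days. At 3 days Socs3, the feedback inhibitor of this signal, had a log2 fold change of 3.78 ± 0.39 (SE), the cytokine Clcf1 3.25 ± 0.44 and Stat3 itself 0.86 ± 0.12. Of 4 other filament and filament-linked genes 2 rose at 3 days, the progenitor filament Nes (2.32 ± 0.38) and the muscle and pericyte filament Des (3.39 ± 0.85), and Nes alone at 35 days (2.07 ± 0.37). Of 10 other transcription factors of astrocytes 3 rose and 1, Hes5, fell at 3 days (-2.04 ± 0.49), and 5 rose at 35 days, such as Id3 (2.12 ± 0.30) and Sox2 (0.63 ± 0.16). Relatives of the receptors and enzymes moved unevenly: Tgm2 (2.01 ± 0.40 at 3 days), Steap3 (1.70 ± 0.33) and S1pr2 (1.82 ± 0.32) rose and Steap2 fell (-1.01 ± 0.22), 3 up and 1 down of 9 tested at each day. No gene of any of these lists was called between Gsx1 or Nkx6.1 and injured control cords at any day. Of all genes, 0% were called in each of these comparisons except Nkx6.1 at 3 days, where 0.337% were.

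Markers of astrocytes at rest were called in shares near those of all genes. Of 15 homeostatic astrocyte markers 3 rose at 3 days, Aldh1l1 (1.03 ± 0.11), the water channel Aqp4 (0.94 ± 0.23) and the gap junction gene Gja1 (0.51 ± 0.15), and 4 rose at 35 days, beside the 19.5% and 21.3% of all genes called higher at these days. Their median log2 fold change was 0.01 at 3 days and 0.04 at 35 days. All 15 were counted in every group, and their sum was 11118 to 13981 CPM in injured control libraries against 12252 to 13095 CPM in sham at 3 days. The summed level of the 10 reactive genes, most of it Gfap, was 8635 to 9439 CPM in injured control libraries against 2007 to 2566 CPM in sham at that day.

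Markers of other cell types moved with the injury as well. All 10 macrophage and microglia markers rose at both days (Cd68 4.57 ± 0.45, Lyz2 4.43 ± 0.47 at 3 days), and their sum was 1517 to 2561 CPM in injured control libraries against 230.0 to 274 CPM in sham at 3 days. At 35 days it was 1630.2 to 3561 CPM in injured control libraries against 194 to 222 CPM in sham. All 8 fibroblast markers rose at both days (Fn1 2.92 ± 0.43), with a sum of 1184 to 3060.5 CPM in injured control libraries against 306 to 515 CPM in sham at 3 days. Of 8 endothelial markers 7 rose at each day. Neutrophils also make Lcn2. Of 9 neutrophil markers 1 rose at 3 days (Mmp8, 2.58 ± 0.88) and 0 at 35 days, with a sum of 158 to 295 CPM in injured control libraries against 58.2 to 130.1 CPM in sham at 3 days. Since Vim is made by macrophages, fibroblasts and endothelium too, their part in its level was not tested.

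Lists that bear on Tgm1 and on the segment itself gave mixed counts. None of the 3 keratinocyte markers with enough counts rose, and summed over 6 such markers the level was 14.2 to 20.6 CPM in injured control libraries against 18.5 to 24.7 CPM in sham at 3 days, with Krt5 at 0 in all 3 injured control libraries. Ependymal markers rose in 0 of 8 cases at 3 days and 4 of 8 at 35 days (Foxj1 0.60 ± 0.17), and Schwann cell markers in 1 of 8 and 5 of 8. Of 10 neuron markers 9 fell at 3 days (Snap25 -1.10 ± 0.27) and 7 at 35 days, and 1 of 7 oligodendrocyte markers fell at each day. Skeletal muscle markers rose in 5 of 6 cases at 3 days, with 2.56 to 257 CPM in injured control libraries against 2.60 to 3.65 CPM in sham, and in 0 of 6 at 35 days.

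**Figure D5:**
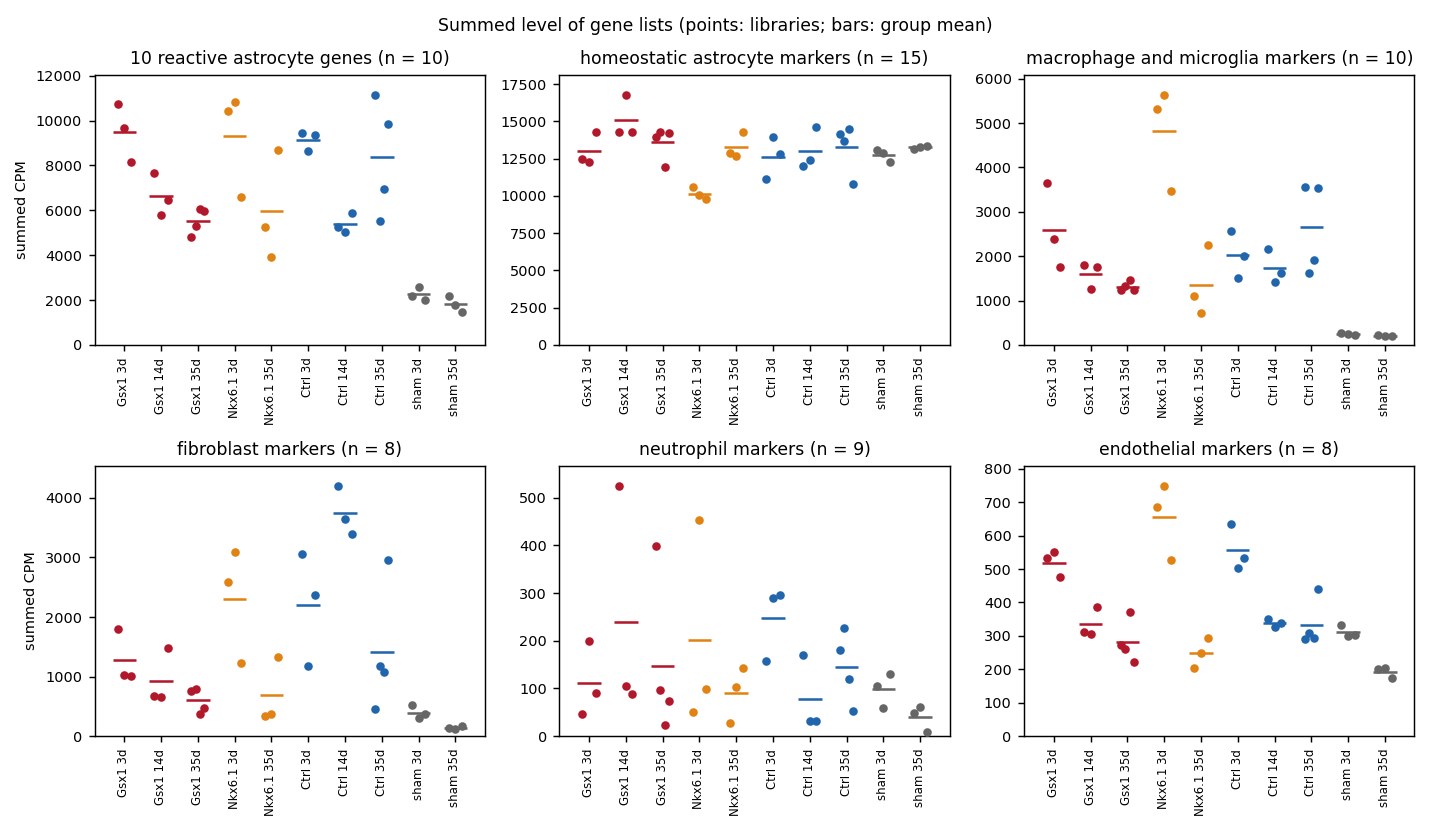
Summed CPM of the 10 reactive genes and of markers of homeostatic astrocytes, macrophages and microglia, fibroblasts, neutrophils and endothelium in 32 libraries, with 1 point per library and a bar at the group mean. The reactive sum stands above sham in every injured group, the macrophage sum does too, and the homeostatic astrocyte sum lies between 9782 and 16806 CPM throughout.

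The profiles of the 10 genes across the 10 groups were alike to different degrees. The median r of each gene to the other members ran from 0.853 (Sox9) to 0.960 (Vim). By Pearson's r of group means of log2 CPM over the 10 groups, a description in which all points share the same libraries, Sox9 was most like Aspg (r = 0.980) and least like Lcn2 (r = 0.757), and Vim was most like Tgm1 (r = 0.989). Vim, Lcn2, Serpina3n, Cd109 and Tgm1 had their highest mean in Nkx6.1 cords at 3 days, Gfap and Steap4 in Gsx1 cords at 3 days, S1pr3 in injured control cords at 3 days, and Aspg and Sox9 in injured control cords at 35 days. For Tgm1 that highest mean was 150.4 ± 62.6 CPM in Nkx6.1 cords, within 1 SD of 129.9 ± 66.3 CPM in Gsx1 cords at 3 days. For Sox9 it was 109 ± 29.6 CPM in injured control cords at 35 days, within 1 SD of 89.6 ± 7.69 CPM at 3 days.

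Outside the 10, the genes with the highest r to each were named by the same measure. For Vim they were Timp1 (r = 0.998), the RNA editing enzyme Apobec1 and the actin-capping gene Capg, and for Gfap Niacr1, the chemokine Cxcl10 and the receptor kinase Axl (each r = 0.984 or 0.983). For Cd109 they were the galectin Lgals3 (r = 0.996), the transporter Slc15a3 and the long noncoding RNA Neat1. For Tgm1 they were the efflux pump Abcb1b (r = 0.993), Slfn2 and Gch1, the rate-limiting enzyme of tetrahydrobiopterin synthesis, and for Serpina3n Parvg (r = 0.996), Mapkapk3 and Rasl11a. For Lcn2 they were Cd34 (r = 0.994), Rgcc and Rac2, and for Steap4 Akna (r = 0.988), Slc43a3 and Cybb, a subunit of the phagocyte oxidase. S1pr3 was most like the protease Plau (r = 0.993), Niacr1 and Ccl3, and Aspg like Lxn (r = 0.980), Slamf9 and Ccl4. Sox9 was most like Plekhh3 (r = 0.978), Naprt1 and Lxn.

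In GRCm38, Gfap (chromosome 11, 102887336 to 102900912, minus strand) and Sox9 (chromosome 11, 112782224 to 112787760, plus strand) share a chromosome, as do Serpina3n (chromosome 12, 104406729 to 104414329, plus strand) and Aspg (chromosome 12, 112106679 to 112127559, plus strand). Vim (13573927 to 13582826, plus strand) and Lcn2 (32384633 to 32388252, minus strand) lie on chromosome 2. The others are Steap4 (chromosome 5, 7960457 to 7982213, plus strand), Cd109 (chromosome 9, 78615546 to 78716253, plus strand), S1pr3 (chromosome 13, 51408639 to 51422797, plus strand) and Tgm1 (chromosome 14, 55700009 to 55713926, minus strand). All 10 are annotated as protein-coding.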

How the data were processed

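RNA of mouse spinal cord was measured by paired-end bulk RNA-seq in 32 libraries, per the labels' protocols. The authors deposited raw read counts per gene symbol, 1 column per library. The submitters' processing notes name HISAT2, SAMtools, HTSeq and DESeq2 and the builds mm10 and GRCm38, with no version or role. The sources used here do not give the annotation, the strand setting or the treatment of shared reads.

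From these counts, genes that passed filterByExpr (at least 10 counts, total of at least 15) were scaled by TMM and fitted in 1 quasi-likelihood model over all 10 groups (edgeR 4.0.16, limma 3.58.1, R 4.3.3). P-values were adjusted by Benjamini-Hochberg over the 16314 genes tested, and a gene was called at an adjusted p under 0.05. SE was the log2 fold change over the square root of F. The script was tested on simulated data. Depth was 10.8 to 19.5 M counts per library, and the common biological coefficient of variation between replicates was 20.8%.

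Alternatives were another scaling, no filter, DESeq2 1.42.0, the compared groups only, a replicate block, Xist as a covariate, H2-Bl and Rpl29 (a pair of autosomal genes with split levels within groups) as covariates, subsets of libraries and each library left out in turn. The members and lists were chosen with earlier results of these data known, and the comparisons of 35 with 3 days within injured labels were added after values were seen. The text names the 10 members, up to 4 genes per list with the smallest p in the comparison described, and for each member the 3 genes, averaging at least 1 CPM, with the highest r. Coordinates are from the GENCODE annotation of GRCm38 and promoters from RefSeq GRCm38.p6. The authors' annotation may differ from both.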

Additional observations from a re-analysis of the deposited data

How the results depend on the processing

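Of the repeats of a member's value under another setting, 2905 kept direction and side of the threshold, 52 lost the call, 31 gained one and 91 changed sign. All reversed values belonged to genes that were not called, and the cause was not tested. The 10 of 10 called against sham in injured control cords held under each alternative except the low-Xist subset, where Lcn2 at 3 days was lost. Of the 10 genes, injured control at 14 against 3 days had 4 called with DESeq2, 9 with the compared groups only, 4 without the 2 libraries of mixed Xist and Ddx3y signal and 1 with the low-Xist libraries only, against 2. Injured control at 35 against 14 days had 0 called, against 2, with no filter, the compared groups only, the replicate block, without the mixed libraries, with the low-Xist libraries only and with either covariate. Sham at 35 against 3 days had 2 called with the compared groups only (Vim and Steap4), against 0. Injured control at 35 against 3 days had 2 called with DESeq2, with the compared groups only and without the mixed libraries, and 5 with the H2-Bl and Rpl29 covariates, against 1. The shares of all genes called under these alternatives are not given here. With each library left out in turn, the count of the 10 called ranged from 0 to 4 for Gsx1 against injured control at 35 days, 0 to 1 for Nkx6.1 against injured control at 3 days, 1 to 2 for injured control at 14 against 3 days and 0 to 3 at 35 against 14 days. It ranged from 1 to 2 for injured control, 4 to 6 for Gsx1 and 5 to 7 for Nkx6.1 at 35 against 3 days, and from 9 to 10 for Gsx1 and Nkx6.1 against sham at 35 days. In the same order, the genes called among all tested ranged from 0 to 1872, 0 to 2571, 122 to 420 and 0 to 2587. For the later comparisons they ranged from 797 to 2331, 1388 to 3588, 4680 to 7785, 893 to 1406 and 425 to 1232. Replicate numbers did not pair the samples: over 22 pairs of same-numbered libraries the correlation of deviations ran from -0.47 to 0.33, 5 were over 0.1, and in 7 the same number gave the highest correlation. The replicate block changed no other count of calls. With the replicate block, reversed values were in injured control at 35 against 3 days Gfap -0.018. Without the 2 libraries of mixed Xist and Ddx3y signal they were in injured control at 35 against 14 days Cd109 -0.025, in the injury by time interaction Aspg -0.075 and in the Gsx1 by time interaction Aspg 0.0031. Further ones were in injured control at 35 against 3 days Gfap -0.014 and Aspg -0.13. With Xist as a covariate they were in Gsx1 against injured control at 3 days Vim 0.038 and Serpina3n 0.023. With the low-Xist libraries only they were in Gsx1 against injured control at 3 days Vim 0.12, Lcn2 0.12 and Serpina3n 0.16, in Gsx1 against injured control at 35 days S1pr3 0.0082 and in Nkx6.1 against injured control at 3 days Steap4 0.10 and S1pr3 0.011. Further ones were in Nkx6.1 against injured control at 35 days Gfap 0.16, Vim 0.29, Serpina3n 0.038, Tgm1 0.014, S1pr3 0.29, Aspg 0.073 and Sox9 0.14, in injured control at 35 against 14 days Vim -0.13 and Cd109 -0.12 and in sham at 35 against 3 days Gfap 0.049 and Sox9 0.10. Further ones were in the injury by time interaction Gfap -0.46, Serpina3n 0.028, Tgm1 0.90, Aspg -0.14 and Sox9 -0.27, in the Gsx1 by time interaction Aspg 0.11 and Sox9 0.033 and in injured control at 35 against 3 days Gfap -0.41, Aspg -0.24 and Sox9 -0.17. Further ones were in Nkx6.1 at 35 against 3 days Gfap 0.041. With H2-Bl and Rpl29 as covariates they were in Gsx1 against injured control at 3 days Tgm1 -0.060, in Gsx1 against injured control at 14 days S1pr3 -0.25 and in Nkx6.1 against injured control at 3 days Tgm1 -0.047 and Steap4 0.058. Further ones were in Nkx6.1 against injured control at 35 days S1pr3 0.14, in injured control at 35 against 14 days Cd109 -0.085 and S1pr3 -0.020 and in sham at 35 against 3 days Cd109 0.026. Further ones were in the injury by time interaction S1pr3 -0.20 and in injured control at 35 against 3 days Gfap -0.17 and Aspg -0.070. With each library left out in turn, values that changed sign ranged, in Gsx1 at 35 against 3 days Aspg -0.25 to 0.053 and S1pr3 -0.28 to 0.080, in injured control at 35 against 3 days Aspg -0.12 to 0.49 and Gfap -0.18 to 0.21 and in Nkx6.1 at 35 against 3 days Aspg -0.016 to 0.51, Gfap -0.50 to 0.054, S1pr3 -0.73 to 0.094 and Sox9 -0.0022 to 0.28. They ranged, in Gsx1 against injured control at 3 days Cd109 -0.50 to 0.10, Lcn2 -0.76 to 0.13, Serpina3n -0.40 to 0.16, Sox9 -0.11 to 0.011, Steap4 -0.36 to 0.44, Tgm1 -0.042 to 0.74 and Vim -0.33 to 0.21, in injured control at 35 against 14 days Cd109 -0.026 to 0.12 and in sham at 35 against 3 days Cd109 -0.26 to 0.26. They ranged, in Gsx1 against injured control at 14 days Lcn2 -0.23 to 1.09 and S1pr3 -0.077 to 0.13, in the injury by time interaction Lcn2 -0.35 to 0.54 and Tgm1 -1.21 to 0.93 and in the Gsx1 by time interaction S1pr3 -0.056 to 0.30. They ranged, in Nkx6.1 against injured control at 3 days S1pr3 -0.50 to 0.28 and Steap4 -0.43 to 0.16 and in Nkx6.1 against injured control at 35 days S1pr3 -0.58 to 0.057. Steap4 and Tgm1 in sham rest on counts of 0 to 22, which limits their folds.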
